A study of Mus musculus with 15 samples.

Results

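The genes described here are 32 genes of sterol synthesis, fatty acid synthesis and cholesterol efflux in the mouse. They were taken by symbol from a table of 17030 genes, and each of the 32 matched 1 row. They comprise 18 enzymes of cholesterol synthesis, 5 genes that control it, 4 genes of sterol transport and efflux, and 5 genes of fatty acid synthesis. Messenger RNA of mouse bone marrow cells was sequenced in 15 libraries, 3 in each of 5 groups. CAR macrophages were labelled with CAR as both genotype and treatment, and control-CAR macrophages with a control CAR as both. A CAR (chimeric antigen receptor) is a synthetic surface receptor that lets an immune cell recognise a chosen target. Hoxb8 macrophages, BMDM (bone marrow-derived macrophages) and progenitor cells were labelled as wild type and untreated. The labels describe the cells of every group as primary cells and give no strain, age or sex, and they do not say what the CAR binds or what drives it. Hoxb8 is a homeobox transcription factor that is commonly used to keep myeloid progenitors dividing in culture, and the labels do not say how it was used here. Whether the replicate libraries stem from different animals or cultures is not stated in the labels. The p-values therefore measure the spread between these libraries, which may be technical.

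Cells build cholesterol from acetyl-CoA through mevalonate, farnesyl diphosphate, squalene and lanosterol. When sterol in the endoplasmic reticulum is low, the escort protein SCAP carries the SREBP transcription factors to the Golgi, where they are cut and released to switch on the genes of sterol and fatty acid synthesis. INSIG proteins hold SCAP back when sterol is plentiful, while oxysterols activate LXR, a nuclear receptor that switches on the efflux transporters Abca1 and Abcg1. Macrophages take up much cholesterol from debris and lipoproteins, and efflux is a main way by which they dispose of it.

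Promoter sequences from RefSeq (build GRCm38.p6), each running from 250 bases before an annotated gene start to 50 bases after it, were found for 25 of the 32 genes. No promoter sequence was matched for Sqle, Fdft1, Stard4, Scd1, Scd2, Fdps and Abcg1. Letter patterns were searched on both strands. The pattern TCACNCCAC, a form of the sterol regulatory element that SREBP binds, was found in the Hmgcs1 promoter and in no other of the 25 genes, against 1.44% of all 27025 genes with a promoter (32851 promoters). The pattern GGTNA repeated in the same direction after a gap of 5 bases, a relaxed form of the LXR element, was found for Abca1, Fasn and Srebf1, against 0.818% of all genes. These 4 promoters are shown because they hold the patterns of the factors that govern synthesis and efflux, and capitals mark the match. The Abca1 sequence is chr4:53159846-53160145 and the Fasn sequence chr11:120824498-120824797, both on the minus strand. The Srebf1 sequence is chr11:60210422-60210721 on the minus strand, and the Hmgcs1 sequence is chr13:119690101-119690400 on the plus strand.
Abca1: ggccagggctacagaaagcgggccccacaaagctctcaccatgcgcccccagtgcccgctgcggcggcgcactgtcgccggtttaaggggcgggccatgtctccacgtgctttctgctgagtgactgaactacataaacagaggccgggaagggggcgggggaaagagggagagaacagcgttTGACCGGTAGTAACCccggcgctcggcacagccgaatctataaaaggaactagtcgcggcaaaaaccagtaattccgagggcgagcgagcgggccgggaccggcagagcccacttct
Fasn: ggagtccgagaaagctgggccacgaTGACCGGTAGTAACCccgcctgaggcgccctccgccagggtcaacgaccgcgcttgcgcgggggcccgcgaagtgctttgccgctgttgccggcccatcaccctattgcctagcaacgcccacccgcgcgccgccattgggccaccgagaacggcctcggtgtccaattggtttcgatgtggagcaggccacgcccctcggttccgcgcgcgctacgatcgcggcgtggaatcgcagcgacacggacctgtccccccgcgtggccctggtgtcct
Srebf1: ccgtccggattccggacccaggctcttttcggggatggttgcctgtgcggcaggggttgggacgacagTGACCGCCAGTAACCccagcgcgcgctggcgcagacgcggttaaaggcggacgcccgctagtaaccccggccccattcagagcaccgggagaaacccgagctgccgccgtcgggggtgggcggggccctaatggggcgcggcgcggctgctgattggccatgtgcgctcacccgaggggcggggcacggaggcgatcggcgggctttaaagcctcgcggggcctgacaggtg
Hmgcs1: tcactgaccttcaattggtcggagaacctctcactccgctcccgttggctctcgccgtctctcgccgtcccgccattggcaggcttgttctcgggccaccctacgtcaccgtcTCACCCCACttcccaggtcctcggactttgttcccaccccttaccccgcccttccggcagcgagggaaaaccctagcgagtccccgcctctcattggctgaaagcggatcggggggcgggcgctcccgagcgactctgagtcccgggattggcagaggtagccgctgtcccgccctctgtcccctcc
Abca1 and Fasn held the same 15 letters, at -67 to -53 in Abca1 and at -225 to -211 in Fasn, counted from the annotated start used for each window. The Srebf1 match lay at -182 to -168 and the Hmgcs1 match at -137 to -129, and none of the 4 shared a base with a match of another pattern searched. The Fasn and Srebf1 windows lay within their genes (chr11:120805958-120825166 and chr11:60199084-60224186), so these starts were not the outermost. The pattern CCAAT, the box bound by NF-Y, a frequent partner of SREBP, was present for 21 of the 25 genes (84%), against 41.1% of all genes. The GC box GGGCGG was present for 22 of the 25 (88%), against 38.2% of all genes. A match describes letters in this window and is not a measured binding site.

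The 15 libraries held 16962839 to 19221681 estimated counts each. Genes that reached an FPKM of 1 (fragments per kilobase of transcript, scaled to sequencing depth) in at least 3 libraries were tested, which kept 11793 genes, the 32 described here among them. Scd1 passed through CAR macrophages and BMDM, and Abca1 through the macrophage groups. Of 8 macrophage markers, 6 averaged at least 1 FPKM in CAR, control-CAR and Hoxb8 macrophages, against 8 in BMDM and 3 in progenitor cells. The summed FPKM of the 8 was 2445 to 2509 in CAR macrophages, 7176 to 7780 in control-CAR macrophages, 7449 to 8164 in Hoxb8 macrophages, 9644 to 10582 in BMDM and 186.7 to 204.8 in progenitor cells. The 7 mast cell and basophil markers summed to 3586 to 3810 FPKM in CAR macrophages, with 7 of 7 at 1 FPKM or more, against 411.4 to 461.2 in control-CAR macrophages, with 4 of 7. Their sum was 1553 to 1672 in progenitor cells, with 4 of 7. It was 407.4 to 418.1 in Hoxb8 macrophages, with 4 of 7, and 267.2 to 289.1 in BMDM, with 6 of 7. The 8 division genes summed to 491.5 to 502.7 FPKM in CAR macrophages, 124.8 to 143.3 in control-CAR macrophages and 1275 to 1289 in progenitor cells. In Hoxb8 macrophages they summed to 131.6 to 166.2 FPKM and in BMDM to 241.8 to 269.4. The 7 progenitor markers summed to 106.7 to 113.3 FPKM in CAR macrophages and 17.02 to 17.48 in control-CAR macrophages. They summed to 17.80 to 20.21 FPKM in Hoxb8 macrophages, 115.5 to 169.5 in BMDM and 766 to 790 in progenitor cells. The 6 neutrophil markers summed to 189.3 to 223.1 FPKM in CAR macrophages, 1701 to 2084 in control-CAR macrophages, 1226 to 1469 in Hoxb8 macrophages and 4773 to 11213 in BMDM. In progenitor cells S100a8, S100a9, Ltf, Camp and Ngp were listed at 0. The 6 fibroblast markers summed to 51.0 to 52.3 FPKM in CAR macrophages, with 5 of 6 at 1 FPKM or more, against 16.2 to 19.1 in control-CAR macrophages, with 1 of 6 and Sparc at 0, and to 15.8 to 24.7 in the other groups. In BMDM 5 of 6 reached 1 FPKM as well, in progenitor cells 2 and in Hoxb8 macrophages 1. The part of these markers in the results on lipid genes was not tested, and in bulk samples fewer cells of a type and less RNA per cell cannot be told apart.

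By FPKM, most synthesis genes stood highest in progenitor cells. Mean FPKM was highest in progenitor cells for 16 of the 18 cholesterol enzymes, 4 of the 5 control genes and 4 of the 5 fatty acid genes, whereas 53.5% of all tested genes were highest there. The exceptions among the enzymes were Pmvk and Mvd, which phosphorylate and decarboxylate mevalonate intermediates and were highest in BMDM. The FPKM of the 18 enzymes summed to 285.6 ± 6.24 in CAR macrophages, 296.1 ± 25.6 in control-CAR macrophages, 313.2 ± 43.1 in Hoxb8 macrophages, 566.4 ± 45.5 in BMDM and 1198 ± 29.8 in progenitor cells (SD, n = 3 each). The first 3 sums lay within their spread of each other, with libraries from 267.1 to 356.6, and the BMDM libraries (528.9 to 617.0) and progenitor libraries (1176 to 1232) stood apart from them and from each other. Fdps, which makes farnesyl diphosphate, had the highest FPKM of the 18 enzymes in progenitor cells (336.3 ± 9.14) and in BMDM (148.4 ± 17.6). The efflux genes did not follow this order: Abca1 was highest in BMDM, and Abcg1 and Mylip were highest in control-CAR macrophages, where neither was called different from Hoxb8 macrophages.

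**Figure D1:**
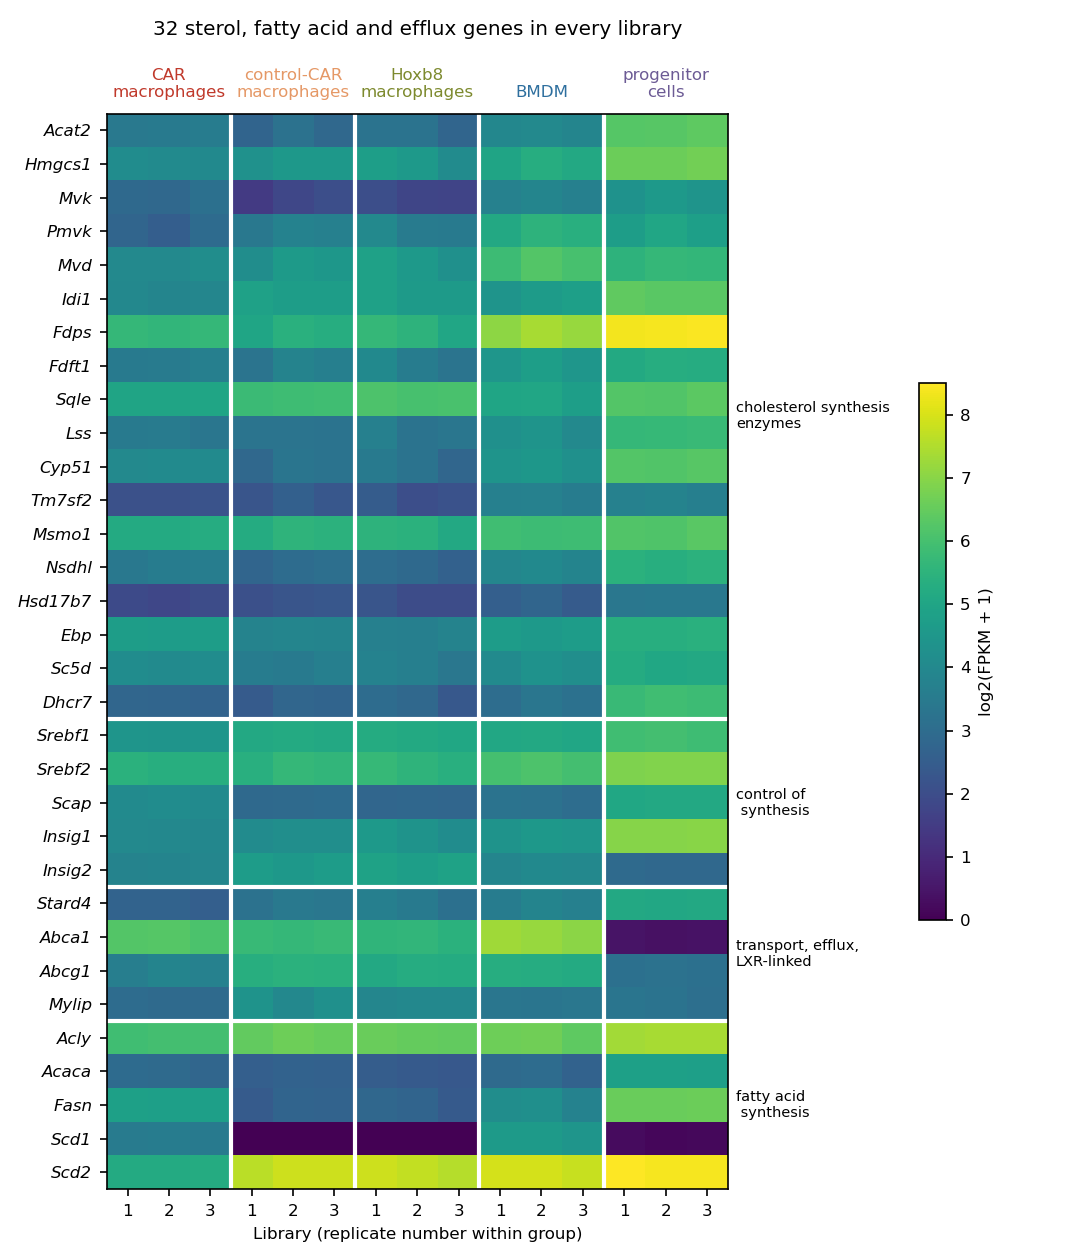
Levels of the 32 genes (rows, grouped by role) in each of the 15 libraries (columns, 3 per group), as log2(FPKM + 1) on the colour scale. The enzyme rows are brightest in progenitor cells, while Abca1 is near 0 there and Scd1 is near 0 in control-CAR and Hoxb8 macrophages and progenitor cells.

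The series' design text names the comparison of CAR with control cells. In CAR macrophages the cholesterol enzymes did not move in one direction, the desaturase Scd2 fell while Scd1 and the fatty acid synthase Fasn rose, and the transporter Abcg1 fell. With edgeR's quasi-likelihood test, Benjamini-Hochberg adjusted over the 11793 genes, the calls were 8 of the 32 genes higher and 17 lower at an adjusted p under 0.05, and 7 were not called. Of all tested genes, 78.7% were called, 41.9% higher and 36.8% lower, so the share of the 32 called was near the background. The median log2 change was -0.51 over the 32 genes and 0.06 over all tested genes. With a change of at least 2-fold required as well, 3 were higher and 9 lower, against 31.7% of all genes in either direction, 20.0% higher and 11.7% lower. In FPKM, 28 of the 32 genes did not overlap between the groups, 13 higher and 15 lower in CAR macrophages, against 82.1% of all genes, 57.4% higher and 24.7% lower. The 12 fell to 7 when changes were taken from FPKM or scaled by library totals, and the split at an adjusted p under 0.05 then became 12 higher and 15 lower, against 53.3% higher among all called genes as reported and 70.8% under those scalings.

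Early enzymes of the mevalonate route moved in both directions. Mvk, mevalonate kinase, had 6.42, 6.41 and 7.85 FPKM in CAR macrophages, against 1.75, 2.47 and 3.10 FPKM in control-CAR macrophages, and rose by 1.17 on the log2 scale (SE 0.167, adjusted p = 3.96e-06). Pmvk, the next kinase, had 5.79, 4.80 and 6.94 FPKM in CAR macrophages, against 9.64, 12.56 and 12.04 FPKM in control-CAR macrophages. It fell, with a log2 change of -1.27 (SE 0.175, edgeR adjusted p = 2.57e-06). The groups did not overlap for either gene, so consecutive steps of the pathway changed in opposite directions. Idi1, the isomerase that follows, had 14.73, 13.76 and 13.89 FPKM in CAR macrophages, against 28.29, 25.83 and 25.87 FPKM in control-CAR macrophages (log2 change -1.22, SE 0.0819, edgeR adjusted p = 1.26e-10). Hmgcs1, the HMG-CoA synthase whose promoter is shown above, and Mvd also fell, with log2 changes of -0.68 and -0.73.

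The later enzymes were split as well. Sqle, the squalene epoxidase that is a control point of the pathway, had 30.42, 30.30 and 30.83 FPKM in CAR macrophages, against 54.17, 57.88 and 58.13 FPKM in control-CAR macrophages. It fell by 1.20 on the log2 scale (SE 0.0759, edgeR adjusted p = 5.32e-11), and the 3 CAR libraries were all lower than any control-CAR library. Cyp51, the lanosterol demethylase, had 15.16, 15.73 and 15.64 FPKM in CAR macrophages, against 6.27, 8.79 and 8.51 FPKM in control-CAR macrophages, and rose (log2 change 0.67, SE 0.143, edgeR adjusted p = 3.42e-04). Ebp, a sterol isomerase, averaged 25.6 ± 0.475 FPKM in CAR macrophages and 13.3 ± 0.330 FPKM in control-CAR macrophages and rose too, with a log2 change of 0.65 (SE 0.064). Tm7sf2, Msmo1 and Hsd17b7, which act in reduction and demethylation after lanosterol, fell, with log2 changes of -0.63, -0.51 and -0.72. Msmo1 overlapped between the groups in FPKM, with 35.39 to 37.25 in CAR macrophages and 36.41 to 45.69 in control-CAR macrophages, and its call was lost on the FPKM scale. The Tm7sf2 change was -0.25 on the FPKM scale, and its call was lost under library totals (log2 change -0.32, edgeR adjusted p = 0.0623). In all, 5 enzymes were called higher, 8 lower and 5 (Fdps, Fdft1, Lss, Sc5d and Dhcr7) not called. This split turned with the scaling, to 7 higher and 6 lower under library totals and 7 higher and 7 lower on the FPKM scale. Fdps and Sc5d were then called higher, with FPKM changes of 0.42 (limma adjusted p = 0.0107) and 0.53 (limma adjusted p = 9.56e-05). Other settings left more enzymes lower: 4 higher and 10 lower with no low-value filter or with filterByExpr, and 3 and 9 under quantile normalisation. With only the 6 libraries of these groups the split was 6 and 10. Fdft1 and Lss were called lower with the 6 libraries and under both other filters (log2 changes -0.34 to -0.38 and -0.19 to -0.23).

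Calls for Acat2, the cytosolic thiolase at the start of the pathway, and Nsdhl, a demethylation enzyme, depended on the fit. Their log2 changes were 0.31 (SE 0.137, edgeR adjusted p = 0.0485) and 0.31 (SE 0.117, edgeR adjusted p = 0.021). The Acat2 call was lost without any CAR library or without control-CAR library 1 or 3, with log2 changes of 0.17 to 0.35 and adjusted p of 0.0536 to 0.25. The Nsdhl call was lost without CAR library 2 or 3 or without control-CAR library 1, with log2 changes of 0.19 to 0.29 and edgeR adjusted p of 0.0574 to 0.134. DESeq2, both other filters and quantile normalisation also ended the Acat2 call, and quantile normalisation ended the Nsdhl call. On the FPKM scale both were called higher, with changes of 0.56 (limma adjusted p = 0.00065 for Acat2 and 0.000156 for Nsdhl). Without control-CAR library 1, Fdft1, the squalene synthase, was called lower (log2 change -0.52, edgeR adjusted p = 0.00624), and so was Dhcr7, the last reductase (log2 change -0.38, edgeR adjusted p = 0.0318). Without control-CAR library 3, Sc5d, a sterol desaturase, was called higher (log2 change 0.25, edgeR adjusted p = 0.0393).

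Of the 5 control genes, 4 fell and 1 rose in CAR macrophages. Scap, the SREBP escort, had 15.86, 16.53 and 15.92 FPKM in CAR macrophages, against 6.51, 6.68 and 6.77 FPKM in control-CAR macrophages, and rose by 0.97 on the log2 scale (SE 0.0671, edgeR adjusted p = 2.06e-10). Insig2, which retains SCAP in the endoplasmic reticulum, had 13.14, 13.20 and 14.11 FPKM in CAR macrophages, against 24.77, 22.38 and 25.16 FPKM in control-CAR macrophages (log2 change -1.15, SE 0.0573, edgeR adjusted p = 1.76e-12). Srebf1, which encodes the SREBP more active on fatty acid genes, had 20.56, 20.20 and 20.53 FPKM in CAR macrophages, against 34.35, 35.54 and 34.16 FPKM in control-CAR macrophages (log2 change -1.07, SE 0.0616, edgeR adjusted p = 1.32e-11). The groups were well apart for these 3 genes. Srebf2, which encodes the SREBP more active on sterol genes, and Insig1, itself a known SREBP target, fell less, each by about the size of the median of the 32 genes. Their log2 changes were -0.51 (SE 0.0927) and -0.50 (SE 0.0866), and Srebf2 was not called on the FPKM scale.

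Abcg1, which passes cholesterol to high-density lipoprotein, had 11.57, 13.23 and 12.44 FPKM in CAR macrophages, against 39.79, 42.64 and 41.70 FPKM in control-CAR macrophages. It fell by 2.04 on the log2 scale (SE 0.0699, edgeR adjusted p = 7.93e-15). Mylip, an LXR-induced ubiquitin ligase that removes lipoprotein receptors, had 6.97, 6.60 and 6.61 FPKM in CAR macrophages, against 19.69, 14.62 and 18.43 FPKM in control-CAR macrophages, and fell by 1.69 (SE 0.0846, edgeR adjusted p = 1.86e-12). Abca1, which loads cholesterol onto lipid-poor apolipoprotein, did not fall with them. Abca1 had 74.56, 75.36 and 67.64 FPKM in CAR macrophages, against 52.40, 50.28 and 53.49 FPKM in control-CAR macrophages. The 2 groups did not overlap, yet the log2 change of 0.17 (95% interval -0.008 to 0.35) was not called (SE 0.0804, edgeR adjusted p = 0.06). It was called higher on the FPKM scale, where the change was 0.47 (SE 0.0691, limma adjusted p = 1.81e-05), under library totals, upper-quartile factors and quantile normalisation, with only the 6 libraries of these groups, and without CAR library 3 (log2 change 0.21, edgeR adjusted p = 0.0381). Stard4, a soluble sterol carrier, fell by 1.09 on the log2 scale (SE 0.116), with 4.96 to 5.58 FPKM in CAR macrophages and 8.25 to 9.88 FPKM in control-CAR macrophages.

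The fatty acid genes held changes in both directions. Fasn had 27.81, 27.14 and 27.03 FPKM in CAR macrophages, against 4.46, 5.70 and 5.57 FPKM in control-CAR macrophages, and rose by 2.07 on the log2 scale (SE 0.139, edgeR adjusted p = 1.25e-10). Scd2, a stearoyl-CoA desaturase that makes monounsaturated fatty acids, had 36.00, 35.44 and 36.69 FPKM in CAR macrophages, against 198.35, 229.45 and 229.05 FPKM in control-CAR macrophages, and fell by 2.91 (SE 0.0953, edgeR adjusted p = 4.32e-15). Scd1, its close relative, was present in CAR macrophages and nearly absent from control-CAR macrophages. Scd1 had 859, 919 and 834 estimated counts in the CAR libraries, against 0, 1 and 1 in the control-CAR libraries, a ratio of 1020 over the summed counts of 2612 and 2 (95% interval 282 to 8430, counting error only). Scd1 and Scd2 neighbour each other, at chr19:44394450-44407709 and chr19:44293676-44306864 (GRCm38.p6). In 3 libraries, those of CAR macrophages, the estimated counts of both carried decimals, which marks reads shared between genes, so their division there is uncertain. By FPKM, Scd1 made up 22.6% ± 1.12 of the pair in CAR macrophages and 0.00291% ± 0.00252 in control-CAR macrophages, while the summed FPKM of the pair was 46.6 ± 0.151 and 219 ± 17.8 in the same order. Acly, which supplies cytosolic acetyl-CoA, fell (log2 change -0.92, SE 0.0755), whereas Acaca, which makes malonyl-CoA, was not called (log2 change 0.01, SE 0.0958, edgeR adjusted p = 0.943). Acaca was called higher on the FPKM scale, with 6.02 to 6.94 FPKM in CAR macrophages and 4.98 to 5.42 FPKM in control-CAR macrophages.

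**Figure D2:**
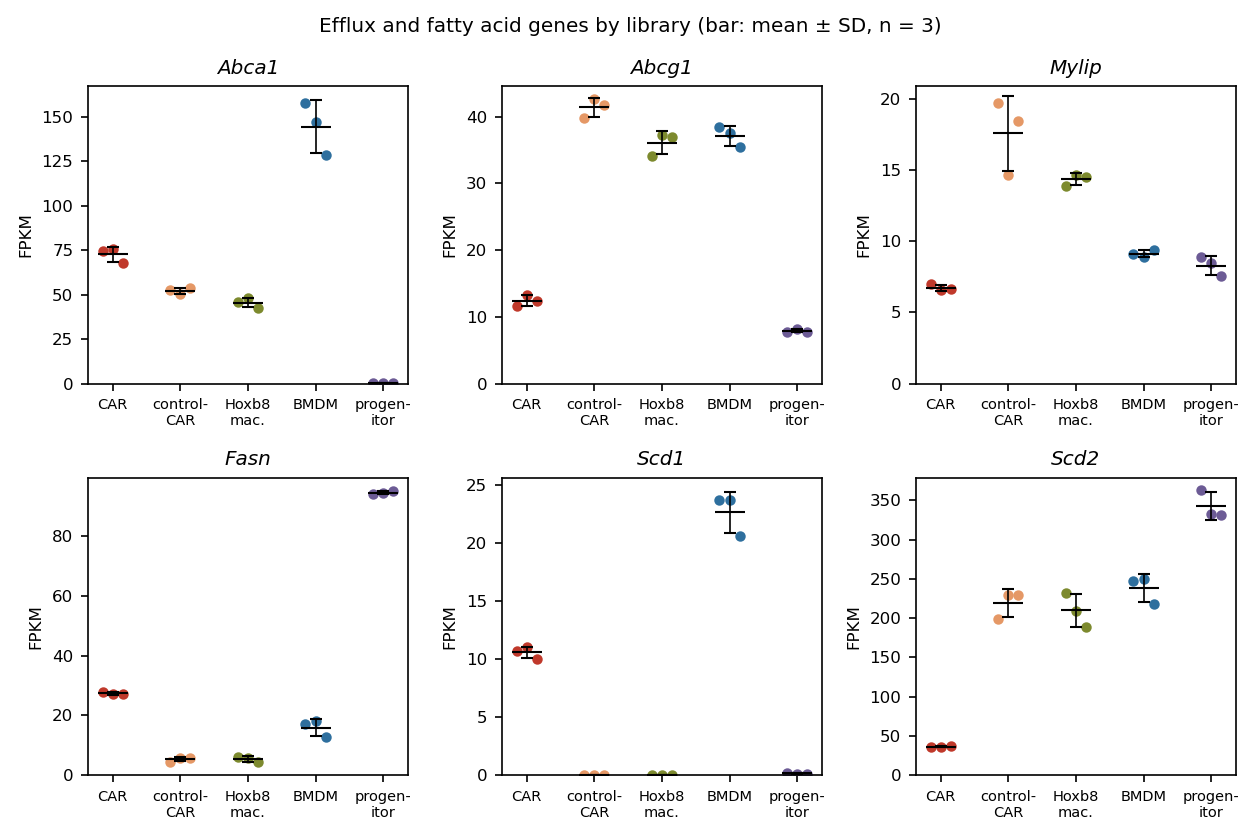
FPKM of 6 efflux and fatty acid genes in each library (points) with the group mean ± SD (bar, n = 3), in 5 groups along the horizontal axis, with a separate linear FPKM axis from 0 for each gene. Abcg1 and Scd2 are lower in CAR than in control-CAR macrophages, Fasn and Scd1 are higher, and Abca1 is highest in BMDM and near 0 in progenitor cells.

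Control-CAR macrophages differed little from Hoxb8 macrophages over all tested genes, and the shares of the 32 genes that differed were near that background. Of the 32 genes, edgeR called 0 higher and 1, Insig2, lower, against 2.62% of all tested genes, 0.721% higher and 1.90% lower. DESeq2 also called 0 higher, and at an unadjusted p under 0.05 in edgeR 3 were higher and 3 lower. At 2-fold 0 of the 32 were called, against 0.170% of all genes, 0.00848% higher and 0.161% lower. In FPKM, 6 of the 32 did not overlap, 4 higher and 2 lower, against 21.9% of all genes, 15.1% higher and 6.82% lower. The median log2 change was -0.04 over the 32 genes and 0.00 over all tested genes. Insig2 had 24.77, 22.38 and 25.16 FPKM in control-CAR macrophages, against 28.83, 26.50 and 28.62 FPKM in Hoxb8 macrophages. The groups did not overlap and the log2 change was -0.27 (SE 0.0545, edgeR adjusted p = 0.0119), but the call was lost without Hoxb8 library 1 (log2 change -0.25, edgeR adjusted p = 0.0665) and on the FPKM scale. Sqle had 54.17, 57.88 and 58.13 FPKM in control-CAR macrophages, against 68.65, 64.31 and 66.17 FPKM in Hoxb8 macrophages. Its log2 change of -0.27 was not called (SE 0.0736, edgeR adjusted p = 0.0641), but DESeq2, upper-quartile factors and library totals called it lower. Scd1 had 2 counts over the libraries of each group, which gives no ratio of use.

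The libraries of these groups also differed among themselves in the enzymes. Hoxb8 library 1 was the highest of its group for 17 of the 18 enzymes and library 3 the lowest for 14, while over all tested genes these shares were 33% and 32.7%. The median ratio of an enzyme to its group mean was 1.18 in Hoxb8 library 1 and 0.84 in Hoxb8 library 3, with 1 and 1.01 over all tested genes. Control-CAR library 1 was the lowest of its group for 15 of the 18 enzymes, with a median ratio of 0.863. BMDM library 2 was the highest of its group for 15 of the 18, with a median ratio of 1.09. Over all tested genes, control-CAR library 1 was lowest for 28.5% (median ratio 1.02) and BMDM library 2 highest for 28.9% (median ratio 1.01). Fdps shows the spread, with 49.29, 44.72 and 31.49 FPKM in the 3 Hoxb8 libraries and 30.79, 40.79 and 38.60 FPKM in the 3 control-CAR libraries. Leaving out either control-CAR library 1 or Hoxb8 library 1 changed the sign of 9 of the 32 changes between control-CAR and Hoxb8 macrophages, none of them called in both fits. In CAR macrophages and progenitor cells the median ratios stayed between 0.979 and 1.03.

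**Figure D3:**
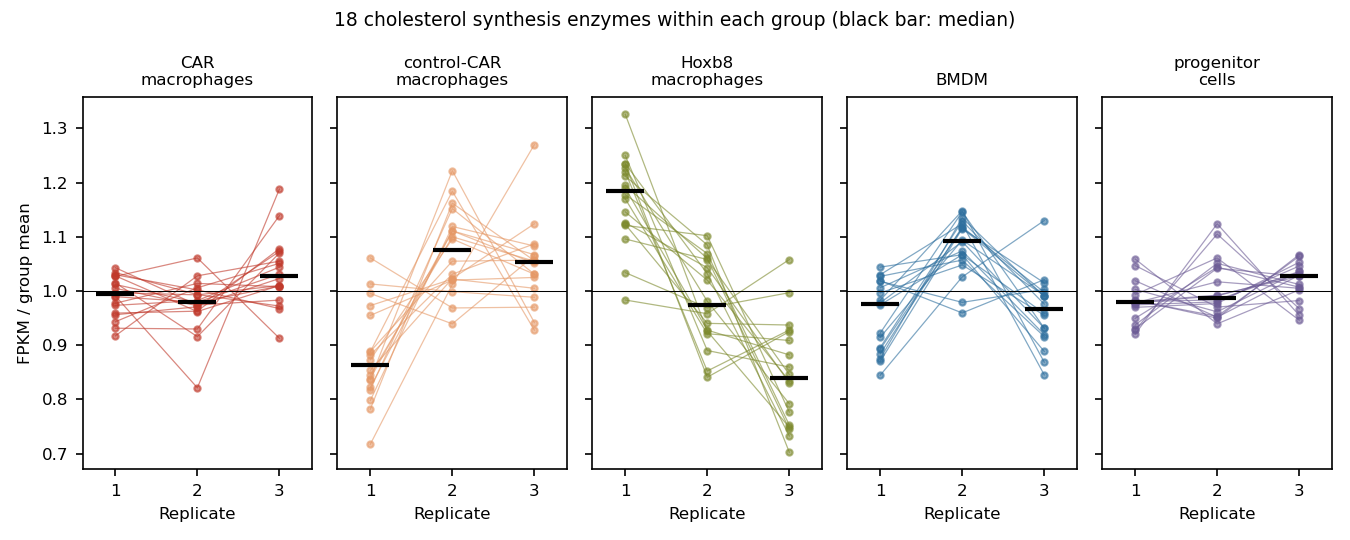
FPKM of each of the 18 cholesterol enzymes in a library divided by the mean of its group, for the 3 libraries of each group; lines join the libraries of a gene and black bars are medians over the enzymes. Hoxb8 library 1 lies at a median of 1.18 and library 3 at 0.84, while CAR and progenitor libraries lie close to 1.

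Hoxb8 macrophages had lower levels of most synthesis genes and higher levels of the efflux genes than progenitor cells. Of the 32 genes, 5 were called higher, 22 lower and 5 were not called, against 84.3% of all tested genes called, 44.7% higher and 39.6% lower. The median log2 change was -0.89 over the 32 genes and 0.06 over all tested genes. With at least a 2-fold change required, 4 were higher and 13 lower, against 49.7% of all genes in either direction, 27.4% higher and 22.3% lower. None of the 32 genes overlapped between the groups in FPKM, with 4 higher and 28 lower, against 88.5% of all genes without overlap, 26.8% higher and 61.7% lower. Under library totals or FPKM the split was 4 higher and 28 lower, and the share of higher calls among all called genes was then 30.3% and 29.8%, against 53% as reported. The 8 division genes averaged 145 ± 18.5 FPKM in sum in Hoxb8 macrophages and 1283 ± 7.36 in progenitor cells, and their part in these changes was not tested.

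Of the 18 enzymes, 15 fell, 1 was called higher, and Mvd and Msmo1 were not called, while under library totals and on the FPKM scale all 18 were called lower. Acat2 had 8.5, 8.36 and 5.89 FPKM in Hoxb8 macrophages, against 76.39, 76.95 and 82.96 FPKM in progenitor cells (log2 change -2.54, SE 0.122, edgeR adjusted p = 3.64e-13). Dhcr7 had 7.04, 6.30 and 4.08 FPKM in Hoxb8 macrophages, against 52.92, 58.18 and 56.11 FPKM in progenitor cells (log2 change -2.41, SE 0.135). Cyp51, Mvk and Fdps fell by 2.36, 2.16 and 2.14, and no enzyme overlapped between the groups in FPKM. Sqle had 68.65, 64.31 and 66.17 FPKM in Hoxb8 macrophages, against 74.82, 72.28 and 81.18 FPKM in progenitor cells. It was called higher with a log2 change of 0.64 (SE 0.0733, edgeR adjusted p = 1.77e-07), but the direction turned under library totals (-0.19, edgeR adjusted p = 0.00702) and on the FPKM scale (-0.19, limma adjusted p = 0.00979). Under each of these scalings Sqle had the highest change of the 18 enzymes, followed by Msmo1 at -0.05 as reported and -0.88 under library totals and on the FPKM scale. Pmvk fell by 0.38 (SE 0.144, edgeR adjusted p = 0.0216), and its call was lost without Hoxb8 library 2 or 3 or progenitor library 2, with log2 changes of -0.31, -0.28 and -0.30. Mvd, with a log2 change of -0.19 as reported, was called lower without Hoxb8 library 1 (-0.36, edgeR adjusted p = 0.0232), with only the 6 libraries (-0.26), under upper-quartile factors (-0.41), quantile normalisation (-0.45) and library totals (-1.02), and on the FPKM scale (-1.01, limma adjusted p = 7.43e-06).

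The INSIG pair separated between the same groups. Insig1 had 22.51, 19.58 and 16.58 FPKM in Hoxb8 macrophages, against 123.07, 123.91 and 126.69 FPKM in progenitor cells, and fell by 1.84 on the log2 scale (SE 0.0807, edgeR adjusted p = 9.15e-14). Insig2 had 28.83, 26.50 and 28.62 FPKM in Hoxb8 macrophages, against 6.72, 6.38 and 6.36 FPKM in progenitor cells, and rose by 2.96 (SE 0.0621, edgeR adjusted p = 1.55e-18). Scap and Srebf2 fell, with log2 changes of -1.63 and -0.54. Srebf1 was not called (log2 change 0.06, edgeR adjusted p = 0.321), while on the FPKM scale it was called lower (-0.75, limma adjusted p = 5.37e-10), with 32.51 to 36.60 FPKM in Hoxb8 macrophages and 57.56 to 61.50 FPKM in progenitor cells.

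Abca1, Abcg1 and Mylip rose under every scaling tried. Abca1 had 45.95, 47.92 and 42.62 FPKM in Hoxb8 macrophages, against 0.35, 0.29 and 0.33 FPKM in progenitor cells, and rose by 7.95 on the log2 scale (SE 0.124, edgeR adjusted p = 2.96e-20). Abcg1 had 34.07, 37.19 and 36.95 FPKM in Hoxb8 macrophages, against 7.76, 8.14 and 7.73 FPKM in progenitor cells (log2 change 3.03, SE 0.0734, edgeR adjusted p = 1.28e-17). Mylip rose by 1.63 (SE 0.084), with 13.91 to 14.67 FPKM in Hoxb8 macrophages and 7.54 to 8.86 FPKM in progenitor cells. Stard4, the sterol carrier of the same role, went the other way and fell by 0.94 (SE 0.106). Among the fatty acid genes, Fasn had 6.18, 5.73 and 4.34 FPKM in Hoxb8 macrophages, against 94.14, 94.37 and 95.07 FPKM in progenitor cells (log2 change -3.30, SE 0.143, edgeR adjusted p = 7.25e-14). Acaca fell by 1.81 (SE 0.0946). Acly and Scd2 were not called, with log2 changes of -0.03 and 0.12, but both were called lower on the FPKM scale. Scd1 was barely detected, with Hoxb8 macrophages at 2 counts summed over libraries and progenitor cells at 33, with a ratio of 0.107 (95% interval 0.0125 to 0.419, counting error only).

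Hoxb8 macrophages also had lower levels of most cholesterol enzymes than BMDM. Of the 32 genes, 5 were called higher, 21 lower and 6 were not called, against 70.3% of all tested genes, 32% higher and 38.3% lower. The median log2 change was -0.47 over the 32 genes and -0.05 over all tested genes. The enzymes accounted for 15 of the genes called lower and 2 of those called higher. With at least a 2-fold change required, 2 were higher and 9 lower, against 23.6% of all genes in either direction, 7.45% higher and 16.2% lower. In FPKM, 25 of the 32 did not overlap, 3 higher and 22 lower, against 70.7% of all genes, 22.2% higher and 48.5% lower. Under library totals or FPKM, 3 were called higher and 24 lower, with 30.9% and 31.2% higher calls among all called genes, against 45.5% as reported.

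Mvk had 3.13, 2.44 and 2.32 FPKM in Hoxb8 macrophages, against 12.36, 13.54 and 12.16 FPKM in BMDM, and fell by 2.11 on the log2 scale (SE 0.154, edgeR adjusted p = 7.18e-10). Fdps, Pmvk, Tm7sf2, Mvd and Cyp51 followed, with log2 changes of -1.67, -1.55, -1.51, -1.31 and -1.13. Sqle went the other way, with 68.65, 64.31 and 66.17 FPKM in Hoxb8 macrophages, against 31.03, 31.70 and 26.40 FPKM in BMDM (log2 change 1.32, SE 0.0758, edgeR adjusted p = 2.22e-11). Every Hoxb8 library exceeded every BMDM library for Sqle, and it held its direction and its call under each scaling. Idi1 was called higher (log2 change 0.27, SE 0.0789) but overlapped in FPKM, with 23.81 to 28.52 in Hoxb8 macrophages and 19.96 to 26.70 in BMDM, and was not called under library totals or on the FPKM scale. Insig2 was higher in Hoxb8 macrophages (log2 change 1.09, SE 0.0562, edgeR adjusted p = 4.55e-12), with 28.83, 26.50 and 28.62 FPKM there, against 13.74, 15.37 and 14.76 FPKM in BMDM. Srebf1 was called higher by 0.24 (SE 0.0602) and lost the call under the same scalings as Idi1.

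Abca1 had 45.95, 47.92 and 42.62 FPKM in Hoxb8 macrophages, against 157.73, 146.90 and 128.31 FPKM in BMDM, and fell by 1.5 on the log2 scale (SE 0.082, edgeR adjusted p = 1.09e-11). Abcg1 did not separate these groups, with 34.07 to 37.19 FPKM in Hoxb8 macrophages and 35.45 to 38.38 FPKM in BMDM. Mylip was higher in Hoxb8 macrophages (log2 change 0.82, SE 0.0824). Fasn had 6.18, 5.73 and 4.34 FPKM in Hoxb8 macrophages, against 17.15, 17.98 and 12.58 FPKM in BMDM (log2 change -1.39, SE 0.138, edgeR adjusted p = 5.06e-08). Scd1 separated the groups most, with 0, 2 and 0 estimated counts in the Hoxb8 libraries, against 2060, 2005 and 1789 in the BMDM libraries, a ratio of 0.000411 (95% interval 4.97e-05 to 0.00148, counting error only). A count of 0 allows up to 3 counts in a library. Scd1 made up 8.66% ± 0.0437 of the FPKM of the Scd pair in BMDM, and Scd2 itself averaged 209.9 ± 21.1 FPKM in Hoxb8 macrophages and 238.6 ± 17.7 FPKM in BMDM, which overlapped.

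BMDM had higher levels of Abca1 and Abcg1 and lower levels of most cholesterol enzymes than progenitor cells. This comparison shares the progenitor libraries with that of Hoxb8 macrophages against progenitor cells, and the BMDM libraries with that of Hoxb8 macrophages against BMDM, so its values are given on their own. Of the 32 genes, 9 were called higher, 17 lower and 6 were not called, against 87.3% of all tested genes, 46.6% higher and 40.7% lower. The median log2 change was -0.22 over the 32 genes and 0.10 over all tested genes. With at least a 2-fold change required, 6 were higher and 8 lower, against 50.2% of all genes in either direction, 29.4% higher and 20.9% lower. In FPKM, 31 of the 32 did not overlap, 7 higher and 24 lower, against 90.4% of all genes, 31.6% higher and 58.9% lower. Under library totals or FPKM, 6 were called higher and 24 lower, with 35.1% and 34.7% higher calls among all called genes, against 53.4% as reported.

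Of the 18 enzymes, 4 were called higher and 10 lower in BMDM. Pmvk had 34.33, 43.98 and 40.05 FPKM in BMDM, against 25.76, 31.46 and 26.73 FPKM in progenitor cells (log2 change 1.17, SE 0.129, edgeR adjusted p = 9e-08). Mvd had 56.54, 73.35 and 63.97 FPKM in BMDM, against 43.99, 49.30 and 48.59 FPKM in progenitor cells (log2 change 1.12, SE 0.129, edgeR adjusted p = 1.66e-07). These 2 mevalonate enzymes were higher in every BMDM library and under every scaling. Tm7sf2 (log2 change 0.61) and Msmo1 (0.30) were also called higher, but both turned negative under library totals and on the FPKM scale, where Msmo1 was called lower. Leaving out progenitor library 2 also ended the Msmo1 call (log2 change 0.23, edgeR adjusted p = 0.0623). Dhcr7, Acat2 and Cyp51 fell by 2.09, 1.80 and 1.23 on the log2 scale.

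Insig1 fell by 1.90 and Scap by 1.39 in BMDM, while Insig2 rose by 1.87 (SE 0.0635, edgeR adjusted p = 1.93e-15), with 13.74, 15.37 and 14.76 FPKM in BMDM, against 6.72, 6.38 and 6.36 FPKM in progenitor cells. Srebf1 averaged 33.0 ± 1.21 FPKM in BMDM and 59.2 ± 2.04 FPKM in progenitor cells, and Srebf2 averaged 64.6 ± 3.86 FPKM in BMDM and 117.4 ± 1.42 FPKM in progenitor cells. Both were called lower, with log2 changes of -0.17 and -0.20 (edgeR adjusted p = 0.0109 and 0.0461) under TMM and of -0.82 and -0.85 on the FPKM scale (limma adjusted p = 1.8e-10 and 1.38e-07). Under TMM the call of Srebf2 was lost without BMDM library 1 (-0.21, edgeR adjusted p = 0.0538) and that of both without BMDM library 3 (-0.12 and -0.14, edgeR adjusted p = 0.0623 and 0.169). Abca1 had 157.73, 146.90 and 128.31 FPKM in BMDM, against 0.35, 0.29 and 0.33 FPKM in progenitor cells, and rose by 9.45 on the log2 scale (SE 0.128, edgeR adjusted p = 4.94e-21). Abcg1 rose by 2.90 (SE 0.0731), with 35.45 to 38.38 FPKM in BMDM and 7.73 to 8.14 FPKM in progenitor cells. Mylip rose by 0.80 (SE 0.0861), and this call was lost under library totals and on the FPKM scale. Scd1 had 5854 summed counts in BMDM and 33 in progenitor cells, a ratio of 261 (95% interval 185 to 379, counting error only). Fasn and Acaca fell by 1.91 and 1.43. Scd2 was not called, with a log2 change of 0.15 that turned negative under FPKM, library totals, upper-quartile factors and quantile normalisation. It was called lower on the FPKM scale (-0.52), under library totals (-0.52) and under quantile normalisation (-0.81). Without BMDM library 3 it was called higher (0.23, edgeR adjusted p = 0.0198).

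**Figure D4:**
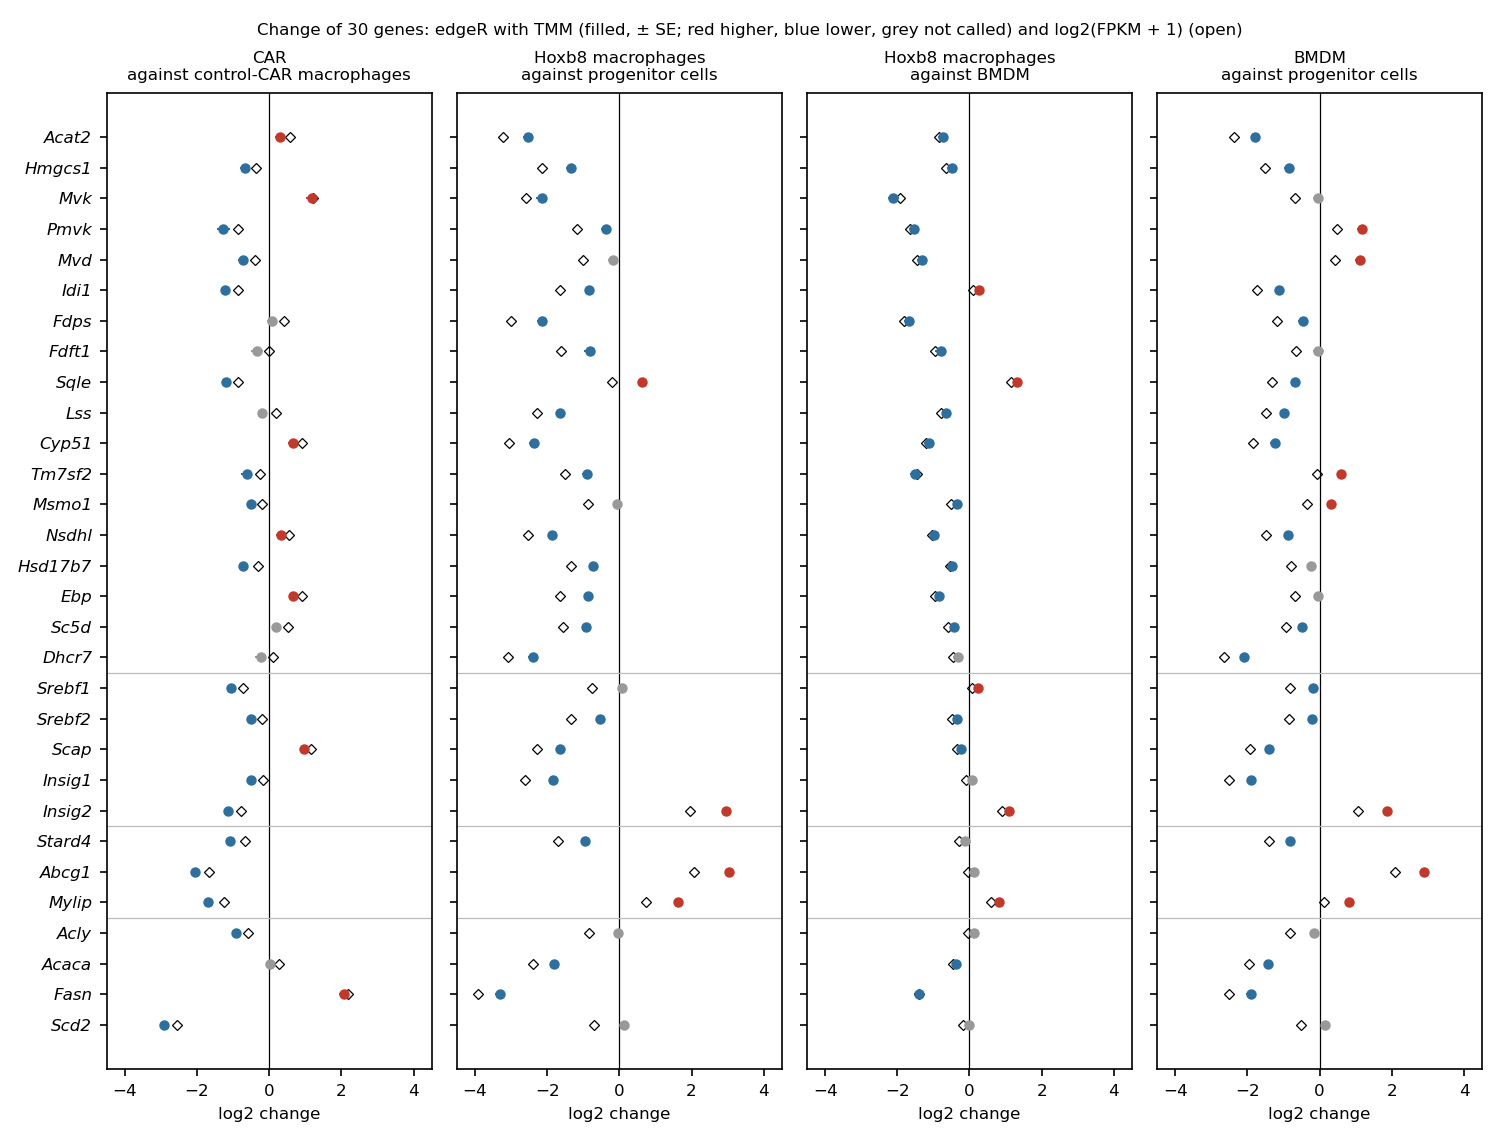
Log2 change of 30 of the 32 genes in 4 comparisons; filled points are edgeR changes with TMM scaling ± SE (red called higher, blue called lower, grey not called) and open diamonds are changes of log2(FPKM + 1). Abca1 and Scd1 are left out because their changes exceed the axis. Open and filled points lie apart in the comparisons with progenitor cells, where, of the called genes, Sqle (Hoxb8 macrophages) and Msmo1 and Tm7sf2 (BMDM) change side.

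Other genes of the same pathways, drawn from 3 lists, were measured beside the 32. Of 18 other sterol and SREBP genes, 5 were called higher and 9 lower in CAR than in control-CAR macrophages, with a median log2 change of -0.16, against 41.9% higher and 36.8% lower of all tested genes. In FPKM without overlap, 10 of the 18 were higher and 6 lower, against 57.4% higher and 24.7% lower of all tested genes. Rdh11, a retinol dehydrogenase, fell (log2 change -0.87, SE 0.0625), while Tmem97, a sterol-regulated membrane protein, and Rxra, the partner of LXR, rose (0.51 and 0.47). Of 16 tested genes among 19 other fatty acid genes, 7 were called higher and 5 lower, with a median of 0.03, so the share called was near the 78.7% of all genes. Elovl6, which elongates palmitate, had 5.02, 5.25 and 5.06 FPKM in CAR macrophages, against 0.87, 0.79 and 0.83 FPKM in control-CAR macrophages (log2 change 2.32, SE 0.108, edgeR adjusted p = 6.31e-13). Me1, an enzyme that supplies NADPH for fatty acid synthesis, had 9.32, 9.23 and 8.87 FPKM in CAR macrophages, against 0.02, 0.02 and 0.06 FPKM in control-CAR macrophages. Slc25a1, the mitochondrial citrate carrier, and Elovl5 fell, with log2 changes of -0.94 and -0.73. Fasn, Elovl6 and Me1 were thus higher in CAR macrophages, while Slc25a1 and Acly were lower.

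Of 20 tested genes among 23 other genes of cholesterol handling, 7 were called higher and 9 lower in CAR macrophages, also near the background of 78.7%. In FPKM without overlap, 12 of the 20 were higher and 7 lower, against 57.4% higher and 24.7% lower of all tested genes. Plin2, the coat protein of lipid droplets, had 430.12, 418.44 and 435.25 FPKM in CAR macrophages, against 128.28, 135.75 and 125.37 FPKM in control-CAR macrophages (log2 change 1.41, SE 0.0831, edgeR adjusted p = 1.95e-11). Soat1, which esterifies cholesterol for storage, had 77.88, 79.46 and 75.94 FPKM in CAR macrophages, against 34.75, 34.98 and 36.60 FPKM in control-CAR macrophages (log2 change 0.83, SE 0.0607, edgeR adjusted p = 4.62e-10). Scarb1, a receptor for high-density lipoprotein, had 21.09, 18.35 and 20.05 FPKM in CAR macrophages, against 43.36, 58.99 and 59.93 FPKM in control-CAR macrophages, and fell by 1.76 (SE 0.135, edgeR adjusted p = 8.45e-10). Apoc2, the cofactor of lipoprotein lipase, fell by 1.29. Between control-CAR and Hoxb8 macrophages, 2 genes of the 3 lists (18, 16 and 20 tested) were called. This count was near the background of 2.62% of all tested genes. The 2 were Lpl (log2 change -0.39, edgeR adjusted p = 0.0384) and Fabp5 (log2 change -0.35, edgeR adjusted p = 0.0471), both lower. The Lpl call was lost without any library except control-CAR library 2 (log2 changes -0.27 to -0.42) and the Fabp5 call without control-CAR library 1 or 3 or Hoxb8 library 1 or 2 (log2 changes -0.26 to -0.36). With only the 6 libraries of these groups both calls were lost (edgeR adjusted p = 0.121 for Lpl and 0.159 for Fabp5). The Fabp5 call was also lost under library totals, on the FPKM scale, under quantile normalisation and with filterByExpr.

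In Hoxb8 macrophages against progenitor cells, 12 of the 20 cholesterol handling genes were called higher and 2 lower, with a median log2 change of 1.78. Of all tested genes, 44.7% were called higher and 39.6% lower. In FPKM without overlap, 11 of the 20 were higher and 6 lower, against 26.8% higher and 61.7% lower of all tested genes. Lpl, lipoprotein lipase, had 7.30, 7.23 and 7.16 FPKM in Hoxb8 macrophages and was listed at 0 in the progenitor libraries. Of the other sterol genes, 8 were called higher and 8 lower, or 4 and 14 in FPKM without overlap, among them Acat1, a mitochondrial thiolase, which fell by 2.21. Rdh11 and Nr1h2, which encodes LXR beta, rose by 1.51 and 1.44. Of the other fatty acid genes, 7 were called higher and 6 lower, or 5 and 11 in FPKM without overlap. Most of all tested genes were also lower in FPKM without overlap (61.7%, against 26.8% higher). Elovl6 and the desaturase Fads2 fell by 4.17 and 3.12, and Acsl1, which activates long-chain fatty acids, and Acss2, an acetyl-CoA synthetase, rose by 2.91 and 1.21. In Hoxb8 macrophages against BMDM, 4 cholesterol handling genes were called higher and 11 lower, 4 other sterol genes higher and 9 lower, and 3 other fatty acid genes higher and 10 lower, against 32% higher and 38.3% lower of all tested genes. Smpdl3a, an LXR-induced phosphodiesterase in human macrophages, had 0, 0 and 0.08 FPKM in Hoxb8 macrophages, against 46.85, 40.59 and 41.56 FPKM in BMDM. Pltp, the phospholipid transfer protein, had 0.11, 0.11 and 0.19 FPKM in Hoxb8 macrophages, against 15.15, 17.52 and 17.68 FPKM in BMDM (log2 change -6.73, SE 0.28). Fabp5 and Fads2 were lower in Hoxb8 macrophages too, with log2 changes of -2.20 and -1.40. In BMDM against progenitor cells, 16 cholesterol handling genes were called higher and 1, Osbpl2, was lower by 0.17, against 46.6% higher and 40.7% lower of all tested genes. In FPKM without overlap, 13 of the 20 cholesterol handling genes were higher and 4 lower, against 31.6% higher and 58.9% lower of all tested genes. The other sterol genes gave 7 higher and 7 lower, and the other fatty acid genes 9 higher and 7 lower.

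Some counts cannot be assigned to a single gene with certainty. The estimated counts of Acat2 and Idi1 carried decimals in 13 and 14 of the 15 libraries, which marks reads shared with another gene. In the GENCODE annotation of the same build, exons of another gene on the same strand covered 26.7% of the exon bases of Fdps (Gm43738) and 12.1% of those of Tm7sf2 (Vps51). Genes on the opposite strand covered 18.3% for Fdft1 (Ctsb), 13.2% for Scap (5830462I19Rik), 12.1% for Hmgcs1 (Gm48342) and 9.22% for Idi1 (Gm48574), and under 4% for Cyp51, Lss and Srebf1. The strand setting of the counting is not given in the sources used here, so reads of opposite genes could have been counted together. Estimated counts of Fdps, Tm7sf2, Fdft1, Scap and Hmgcs1 were whole in all 15 libraries, so the mark of decimals was absent for them.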

How the data were processed

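Bulk RNA-seq of 15 mouse libraries was read from a table of 17030 genes. Per the labels' protocols, RNA was taken up in TRIzol, DNase-treated, selected with oligo(dT) and reverse-transcribed from random hexamers. HISAT2, Bowtie2, RSEM 1.3.1, DESeq2 1.4.5 and GRCm38.p6 are named in the submitters' processing notes. Not given in the sources used here are the annotation, the strand setting and the versions of HISAT2 and Bowtie2.

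Per the file headers, the deposited estimated counts are not normalised, and 94.4% to 96% of a library's values were whole. The FPKM values are the authors' own, per the file headers. Columns of TPM (15) and of averages (15) were not used, and 0 sample columns were left unmatched.

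Estimated counts were rounded and tested with edgeR 4.0.16 (R 4.3.3), quasi-likelihood, two-sided, TMM normalisation. All 15 libraries entered 1 model with a mean per group (10 residual degrees of freedom). The Benjamini-Hochberg adjustment ran over 11793 genes with an FPKM of at least 1 in at least 3 libraries, leaving out 5237. TMM takes most genes as unaltered, whereas 70.3% to 87.3% of genes were called in every comparison except control-CAR against Hoxb8 macrophages. The threshold for a call was an adjusted p under 0.05. Levels are mean FPKM ± SD of 3 libraries, and changes are log2 ratios. FPKM changes are on the log2(FPKM + 1) scale, tested with limma 3.58.1, which understates changes of low genes. Scd1 ratios are of summed counts, scaled by library size and TMM factor, with exact 95% intervals for counting error only. On simulated counts of 11793 genes for CAR against control-CAR, 82.1% of genes changed 1.5-fold, 97% of 2-fold and 100% of 4-fold were called, and 10 of 11593 unaltered genes. Only 67, 67 and 66 genes were changed there, up or down, while 78.7% of genes were called in the data. The simulation therefore does not measure errors when most genes shift. DESeq2 1.42.0, other scalings, filters, a replicate block and omitted libraries were alternatives. Libraries of a group differed by more than sampling noise (chi-square per degree of freedom 1.42 to 22.3), so none was counted as a repeat. CAR libraries lay nearest to sampling noise (1.42 to 2.07) and BMDM libraries reached 6.92 to 22.3, while the model shared 1 estimate of spread. These values do not show whether libraries of a group are technical repeats.

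The 32 genes, the other lists and the markers were chosen with earlier results of these data known. Besides the 32, the text names up to 2 called genes with the largest rise and 2 with the largest fall per list and comparison, at a mean of at least 5 FPKM in the higher group; some genes are not reported here. Promoters came from RefSeq, exon overlaps from GENCODE, and figures were drawn with matplotlib 3.10.9 (Python 3.11.15).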

Additional observations from a re-analysis of the deposited data

How the results depend on the processing

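Relative to TMM, library totals shifted the median of all tested genes by 0.31 (log2) for CAR against control-CAR, 0.04 for control-CAR against Hoxb8 macrophages, -0.745 for Hoxb8 macrophages against progenitor cells, -0.17 (Hoxb8 macrophages against BMDM) and -0.64 (BMDM against progenitor cells). FPKM with a pseudocount of 1 shifted it by 0.23, 0.03, -0.62, -0.11 and -0.57, and quantile normalisation by -0.16, 0.01, -0.14, 0.12 and -0.32. Upper-quartile factors shifted it by -0.13 and -0.16 in the comparisons with progenitor cells. Counts of the 32 genes moved past 1.5 times in these cases. Under library totals and both FPKM fits, the genes called at 2-fold in CAR against control-CAR numbered 7, and those called higher in Hoxb8 macrophages against BMDM 3. Those at 2-fold in Hoxb8 macrophages against progenitor cells numbered 26 under library totals and FPKM with a pseudocount of 0.1, against 17. In control-CAR against Hoxb8 macrophages, 2 were called lower by DESeq2, upper-quartile factors and library totals, and 0 by both FPKM fits and with only the 6 libraries compared. All genes called there numbered 309, against 470 under library totals and 97 with the 6 libraries. Without each library in turn, 0 to 1 of the 32 were higher, 0 to 2 lower and 106 to 311 of all genes were called there. Omitted libraries moved the median change of the 32 genes there to between -0.186 and 0.053, against -0.041 as reported and -0.005 under library totals. Without control-CAR library 3 the number of genes called was 118, and without Hoxb8 library 1 or 2 it was 106 or 170. The cause was not tested.

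Among genes whose changes are printed, directions turned under library totals, FPKM with a pseudocount of 1 and FPKM with 0.1, in that order. For BMDM against progenitor cells they were Msmo1 (-0.36, -0.36, -0.36), Scd2 (-0.52, -0.52, -0.52) and Tm7sf2 (-0.0561, -0.0621, -0.0668). For Hoxb8 macrophages against progenitor cells they were Scd2 (-0.71, -0.71, -0.71), Sqle (-0.19, -0.19, -0.20) and Srebf1 (-0.77, -0.75, -0.77). For CAR against control-CAR they were Dhcr7 (0.0764, 0.10, 0.11) and Lss (0.11, 0.19, 0.21), and Fdft1 in the FPKM fits (0.0027 and 0.0044). Among uncalled genes without a printed change, 3 turned in Hoxb8 macrophages against BMDM under each of these settings, and 2, 3 and 3 in control-CAR against Hoxb8 macrophages. Quantile normalisation turned Msmo1 (-0.0475) and Scd2 (-0.81) in BMDM against progenitor cells, Scd2 (-0.89) and Srebf1 (-0.24) in Hoxb8 macrophages against progenitor cells, and Acaca (-0.19) in CAR against control-CAR. Upper-quartile factors turned Scd2 in both comparisons (-0.029 for BMDM, -0.0916 for Hoxb8 macrophages) and Srebf1 (-0.15), which the 6 libraries alone also turned (-0.0051). Acaca turned under DESeq2 (-0.0081), filterByExpr (-0.0185) and no filter (-0.0244), and without CAR library 1 or 2 or control-CAR library 1 (range over the omitted libraries -0.0546 to 0.0612). Without 1 library, Fdps turned in CAR against control-CAR (control-CAR library 1, range -0.0469 to 0.198), Msmo1 in Hoxb8 macrophages against progenitor cells (Hoxb8 library 3, -0.1232 to 0.0556), and Fdft1 in BMDM against progenitor cells (BMDM libraries 1 and 3, -0.1381 to 0.0305). Of these, Msmo1, Tm7sf2 and Sqle were called as reported.

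The labels do not say that a shared replicate number pairs libraries, and the correlations of same-numbered deviations ran from -0.22 to 0.067. With the number as a replicate block, the 32 genes gave 8 higher and 17 lower (CAR against control-CAR), 0 and 1 (control-CAR against Hoxb8 macrophages), 5 and 22 (Hoxb8 macrophages against progenitor cells), 5 and 21 (Hoxb8 macrophages against BMDM) and 9 and 17 (BMDM against progenitor cells), the counts reported. It ended the calls of Lpl (adjusted p = 0.0757) and Fabp5 (0.0607) between control-CAR and Hoxb8 macrophages. At this depth, Scd1 could not be compared between control-CAR and Hoxb8 macrophages.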
